A study of Mus musculus with 12 samples.

Results

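The genes described here are 38 genes of the cell division machinery, named by symbol: 11 that copy DNA or supply nucleotides in S phase and 27 cyclin, kinase, chromosome and spindle genes, most of which act in mitosis. They were taken as listed in the gene tables of 12 RNA-seq libraries from mouse kidney glomeruli, the capillary tufts in which blood is filtered. All 38 were listed among the 16293 genes of the streptozotocin libraries, and 36 among the 13480 genes of the baseline libraries. Birc5 and Ccne2 were not listed at baseline and were dropped from every comparison with that arm. The 36 other genes were among the 13475 genes listed in both arms, out of 16298 listed in either. No cut on measured values was used to choose the genes. Earlier results of these data were known when they were chosen.

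Each of the 4 groups held 3 different mice on a C57BL/6 background, and a library was made from the glomeruli of each. Control mice and mice with a knockout of DACH1 restricted to podocytes were sampled untreated at the age of 10 weeks, which is the baseline arm. Mice of both genotypes were also sampled 10 days after streptozotocin (STZ), which destroys pancreatic beta cells and so causes diabetes, injected into the peritoneum on 5 successive days at a daily 50 µg per g. DACH1 is a nuclear regulator of transcription, and podocytes are epithelial cells whose foot processes form the filtration slits. The labels do not name the promoter that drove the deletion or the alleles of the controls, and the STZ controls carry the prefix "hetN" in their titles, which the labels do not explain. Whole glomeruli were used, which hold endothelial, mesangial and parietal cells besides podocytes.

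A cell that enters the division cycle first copies its DNA and then separates the copies. In S phase the MCM2 to MCM7 proteins form the ring that unwinds DNA, PCNA is the sliding clamp that holds the polymerase, and ribonucleotide reductase, thymidylate synthase and thymidine kinase supply nucleotides. Cyclins with CDK1 then start mitosis, Aurora and Polo kinases order its steps, the checkpoint proteins BUB1 and BUBR1 hold the chromosomes until their kinetochores are attached, and kinesins and cytokinesis proteins divide the cell. Transcripts of these genes are low in resting cells and are used as a readout of cycling cells. Mature podocytes are known for not dividing, while endothelial, mesangial, parietal and immune cells can. In whole glomeruli, a larger number of cycling cells and more RNA per cycling cell cannot be told apart.

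The promoters of these genes carry letters by which the family is known: the cell cycle homology region (CHR) and CCAAT boxes in late genes, and E2F cores in S-phase genes. They are shown for 2 mitotic and 2 S-phase genes named in the results below. The 150 bases before the transcript start are read 5′ to 3′ on the gene's strand from the RefSeq promoter table of GRCm38.p6. Capitals mark TTTGAA or TTCGAA (CHR), CCAAT or its reverse ATTGG, and TTCCCGC or TTGGCGC (E2F core).
Ckap2, chr8:22185820-22185969, minus strand: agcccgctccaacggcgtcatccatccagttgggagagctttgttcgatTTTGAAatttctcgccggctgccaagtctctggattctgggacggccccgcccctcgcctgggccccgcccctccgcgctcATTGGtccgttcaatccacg
Cdk1, chr10:69352913-69353062, minus strand: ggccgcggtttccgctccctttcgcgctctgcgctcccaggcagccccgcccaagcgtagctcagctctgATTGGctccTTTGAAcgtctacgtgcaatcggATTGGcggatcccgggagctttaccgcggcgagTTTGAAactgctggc
Rrm1, chr7:102441545-102441694, plus strand: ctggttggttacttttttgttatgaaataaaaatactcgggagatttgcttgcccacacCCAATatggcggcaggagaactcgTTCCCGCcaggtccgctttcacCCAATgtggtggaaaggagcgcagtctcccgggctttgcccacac
Mcm6, chr1:128359706-128359855, minus strand: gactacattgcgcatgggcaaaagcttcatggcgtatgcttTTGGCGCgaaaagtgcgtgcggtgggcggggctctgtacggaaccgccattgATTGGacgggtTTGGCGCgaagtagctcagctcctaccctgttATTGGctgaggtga

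The table held a promoter for 32 of the 38 genes, as 35 windows that ran from 250 bases before to 50 bases after a start, so some genes had more than 1 start. Searched on both strands, the CHR letters stood in 20 of 24 windows of mitotic genes (83.3%) and in 2 of 11 windows of S-phase genes (18.2%), against 19.2% of all 32851 windows of that length. CCAAT stood in 87.5% of the mitotic and 81.8% of the S-phase windows, against 37.4% of all. Both CHR and CCAAT were present in 79.2% of the mitotic and 18.2% of the S-phase windows, against 7.52% of all. The E2F cores had the opposite order, with 54.5% of the S-phase and 20.8% of the mitotic windows, against 6.81% of all. A CCAAT box read in reverse (ATTGG) and the E2F core TTGGCGC can share letters, so the matches are not fully independent. These are matches of letters in a window, and neither binding nor promoter activity was measured.

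Dach1, the targeted gene, separated the genotypes in both arms without overlap. Knockout libraries stood at 47.2 to 59.3 CPM (counts scaled to the library's size) against 106 to 188 in controls at baseline, and at 55.8 to 67.0 against 145 to 183 after STZ. The baseline libraries held between 2.26e+07 and 2.49e+07 counts each, and the STZ libraries between 6.61e+07 and 7.86e+07. The tables of the arms had been filtered differently: genes of the STZ tables all had a library with 100 counts or more, whereas 362 genes of the baseline tables had none. By Xist and Ddx3y, each baseline group held 2 female mice and a male (replicate 3), the STZ controls were all male, and the STZ knockouts were male except replicate 2. Any difference between STZ and baseline therefore cannot be told apart from depth, table filter and the mix of sexes, which differed between the arms in both genotypes. The labels give an age for the baseline mice only, so age cannot be told apart from STZ either. Replicate numbers follow the order of deposit and only name the mice.

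Levels are given as CPM scaled over all 12 libraries, and as CPM per kilobase of exon where genes are compared with one another. Per kilobase in the baseline controls, Pcna stood highest at 56.4, followed by Mcm3 at 11.6, Rrm1 at 10.4, Mcm7 at 9.50 and Mcm4 at 8.72. The other 25 genes listed at baseline ran from 0.30 for the kinetochore protein gene Cenpf to 6.75 for Ckap2l, and the S-phase genes from 2.34 for Rrm2 upwards, so the ranges overlapped. Mki67, which encodes the proliferation marker Ki-67, stood at 0.76 per kilobase and Cdk1 at 1.29. No member count was below 30 in any library. That lowest count, of Aurkb in control replicate 1 at baseline, has an exact Poisson 95% interval of 20.2 to 42.8, which covers counting error only.

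Of the 36 genes, 33 had their lowest group mean in the baseline controls and 3 in the baseline knockouts (Mcm3, Mcm4 and Ckap2l). The highest mean lay in the STZ knockouts for 24 genes, in the STZ controls for 11 and in the baseline knockouts for 1 (Tyms). These orders are of means and were not counted over all genes. Most neighbouring means lay within the spread of the mice, as the comparisons below give. The largest ratio between the highest and the lowest group mean was 3.21, for Ckap2.

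**Figure D1:**
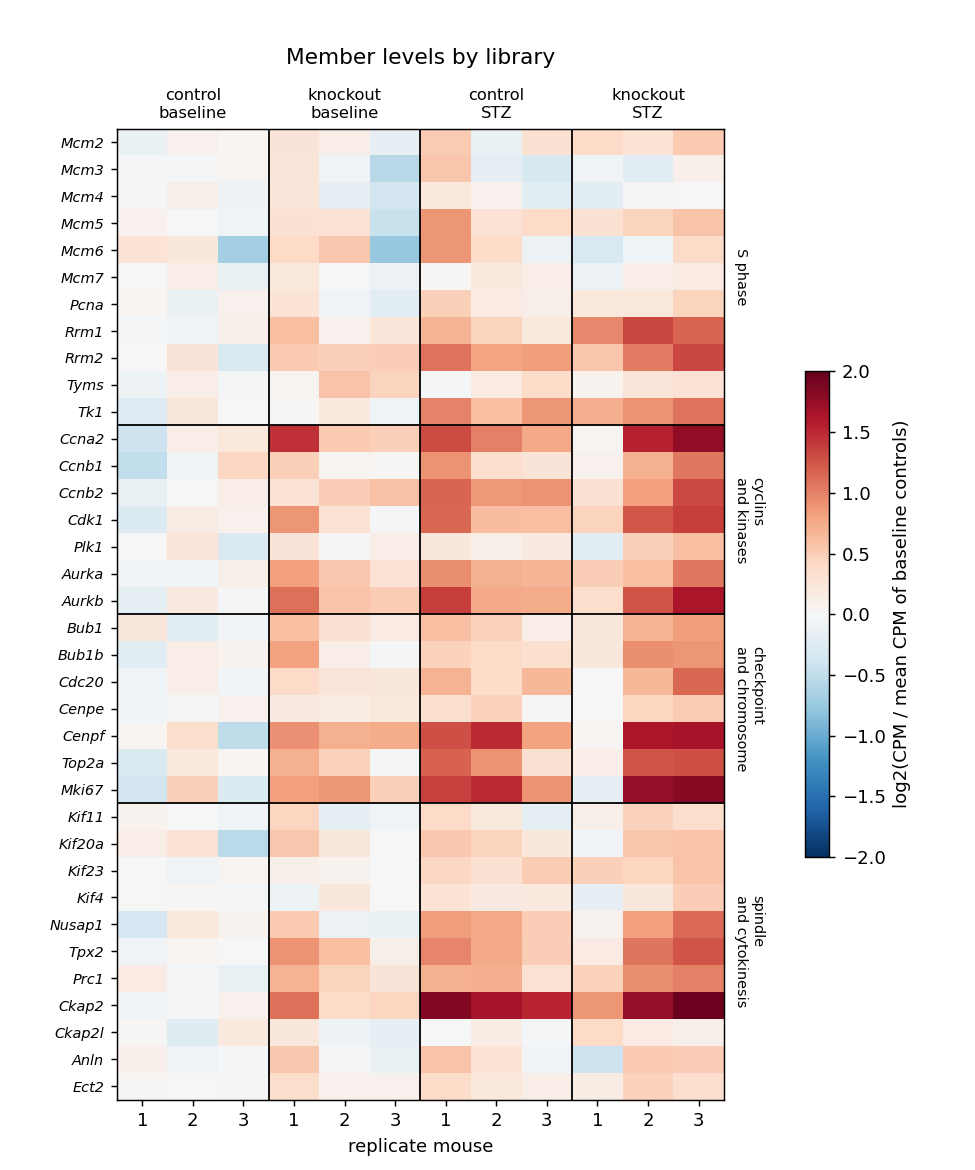
Levels of the 36 genes listed in both arms, as log2 of the CPM in each library over the mean CPM of the 3 baseline controls (colour scale from -2 to 2). Columns are the 3 mice of each group, and rows are grouped by role. Red spreads over most rows in the STZ libraries except knockout replicate 1, and the Mcm4 and Mcm7 rows stay pale.

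STZ was compared with baseline within each genotype. In the control mice all 36 genes had positive log2 fold changes, with a median of 0.42 against 0.02 for all 13473 genes tested, of which 53.7% were positive. Ckap2 rose, by 1.65 ± 0.18 on the log2 scale (SE, n = 3 mice against 3, edgeR quasi-likelihood test, adjusted p = 0.0300), and was the 1 gene of the 36 that passed. The background was 0.23% of all genes called. At an unadjusted p under 0.05, 18 of the 36 were higher in STZ controls, against 5.58% of all genes. In 22 of the 36 every STZ control lay above every baseline control, against 11.6% of all genes. DESeq2 called 8 of the 36, against 3.05% of all genes: Ccna2, Ccnb2, Cenpf, Ckap2, Mki67, Rrm2, Tk1 and Tpx2.

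Ckap2 encodes a microtubule-binding protein of the spindle (chromosome 8, 22168149 to 22185819, GRCm38.p6). It stood at 1.86, 1.93 and 2.07 CPM in the baseline controls, at 4.18, 2.53 and 2.63 in the baseline knockouts, at 7.06, 6.12 and 5.61 in the STZ controls and at 3.59, 6.62 and 7.60 in the STZ knockouts. The lowest STZ control was far above the highest baseline control, and the baseline controls lay within a narrow range. The call was lost when any 1 of the 6 libraries was left out, with adjusted p from 0.0755 to 0.173 and log2 fold changes from 1.55 to 1.73. With sex as a covariate the log2 fold change was 1.57. The STZ controls were all male and baseline control replicate 3 was the only male of its group. That fit therefore sets the STZ controls against 1 mouse, and its call says nothing on the part of sex. Its paralogue Ckap2l, with 5.77% of exon bases shared with another annotated gene, had a log2 fold change of 0.01 ± 0.14 in the same comparison.

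The 7 cyclin and kinase genes listed in both arms had a median log2 fold change of 0.78 in controls, and 5 of them an unadjusted p under 0.05. Cyclin A2, encoded by Ccna2, acts in S phase and at entry into mitosis. It stood at 2.90, 4.24 and 4.51 CPM in the baseline controls and at 9.61, 7.80 and 6.57 in the STZ controls, with a log2 fold change of 1.01 ± 0.24 (adjusted p = 0.213, edgeR). The 2 groups of controls did not overlap.

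Cyclin B2, from Ccnb2, is a partner of CDK1 in mitosis. Ccnb2 stood at 2.60, 2.89 and 3.15 CPM in the baseline controls and at 6.44, 5.28 and 5.35 in the STZ controls, with a log2 fold change of 0.95 ± 0.18 (adjusted p = 0.158, edgeR). Cdk1, the kinase itself, stood at 4.77, 6.36 and 6.13 CPM and at 12.8, 8.81 and 8.74. Each STZ control was again above each baseline control for both genes. Neither passed the adjusted edgeR test, while DESeq2 called Ccnb2.

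Ccnb1, which encodes cyclin B1, differed from its relatives in that the groups overlapped. It stood at 2.38, 3.16 and 4.47 CPM in the baseline controls and at 6.23, 4.23 and 3.98 in the STZ controls. Named pseudogenes exist for Ccnb1 and Ccnb2, as for Pcna, Kif4 and Tyms, and how reads shared with them were counted is not given in the sources used here. Plk1, the Polo kinase gene, had a log2 fold change of 0.15 ± 0.19, the lowest of the 7. Aurkb, the kinase of the chromosomal passenger complex, had 0.96 ± 0.27.

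Of the 7 checkpoint and chromosome genes, 4 had an unadjusted p under 0.05 in controls and the median log2 fold change was 0.55. Mki67 (chromosome 7, 135689784 to 135716450) stood at 5.94, 10.6 and 6.34 CPM in the baseline controls and at 19.7, 21.5 and 14.2 in the STZ controls. Its log2 fold change was 1.24 ± 0.28 (adjusted p = 0.199, edgeR), without overlap of the groups. Top2a, the topoisomerase that untangles sister chromatids, stood at 9.58, 13.5 and 11.9 CPM and at 26.5, 21.7 and 14.4. The lowest STZ control for Top2a was close to the highest baseline control, and the log2 fold change was 0.81 ± 0.25. Cenpf had 1.19 ± 0.28, and the checkpoint genes Bub1 and Bub1b had smaller values of 0.38 ± 0.21 and 0.36 ± 0.16.

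The 11 spindle and cytokinesis genes had a median of 0.37 in controls. Beside Ckap2, the genes with an unadjusted p under 0.05 were Tpx2, a spindle assembly factor, at 0.72 ± 0.18, Nusap1 at 0.68 ± 0.20, Prc1, the bundler of midzone microtubules, at 0.56 ± 0.17, and Kif23, a kinesin of cytokinesis, at 0.38 ± 0.12. Kif23 stood at 14.4, 13.5 and 14.9 CPM in the baseline controls and at 19.1, 17.6 and 20.4 in the STZ controls. All 3 STZ controls thus lay a little above all baseline controls. The remaining members of the group, Kif11, Kif20a, Kif4, Ckap2l, Anln and Ect2, had log2 fold changes from 0.01 to 0.37. Levels are uncertain where a gene shares exon bases with a neighbour, which was the case for over 5% of the bases in 9 members: Kif20a (31.8%), Prc1 (21.8%), Kif4 (15.1%), Mcm7 (13%), Ccne2 (10.5%), Ccna2 (10.4%), Plk1 (7.09%), Ckap2l (5.77%) and Tk1 (5.76%).

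The 11 S-phase genes had a median of 0.23 in controls. The nucleotide supply genes Rrm2, Tk1, Rrm1 and Tyms had log2 fold changes of 0.88 ± 0.19, 0.80 ± 0.20, 0.42 ± 0.15 and 0.14 ± 0.14. The helicase genes ran from 0.01 ± 0.15 for Mcm4, over 0.04 for Mcm3, 0.09 for Mcm7, 0.22 for Mcm2 and 0.41 for Mcm6, to 0.51 ± 0.19 for Mcm5, so the 2 functions overlapped.

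Rrm2, the subunit of ribonucleotide reductase made in cycling cells, stood at 5.11, 6.13 and 4.18 CPM in the baseline controls and at 10.9, 8.89 and 9.16 in the STZ controls. Tk1, cytosolic thymidine kinase, stood at 3.21, 4.47 and 3.81 CPM and at 7.62, 5.79 and 7.05. Neither gene overlapped between the groups, and neither passed the adjusted edgeR test, while DESeq2 called both. Pcna stood at 87.9, 78.0 and 90.9 CPM and at 119, 95.5 and 93.3, a log2 fold change of 0.23 ± 0.14. Every STZ control was above every baseline control for Pcna too, by little for 2 of the 3 STZ controls.

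Among the MCM genes, Mcm5 had the largest value. It stood at 14.2, 13.4 and 12.6 CPM in the baseline controls and at 24.7, 16.5 and 17.5 in the STZ controls, with a log2 fold change of 0.51 ± 0.19. Mcm2 stood at 18.7, 21.8 and 21.2 CPM and at 29.3, 18.7 and 25.3, and the groups overlapped. Mcm6 stood at 14.8, 14.3 and 7.70 CPM and at 22.8, 15.8 and 11.3, and the groups, which hold different mice, overlapped.

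**Figure D2:**
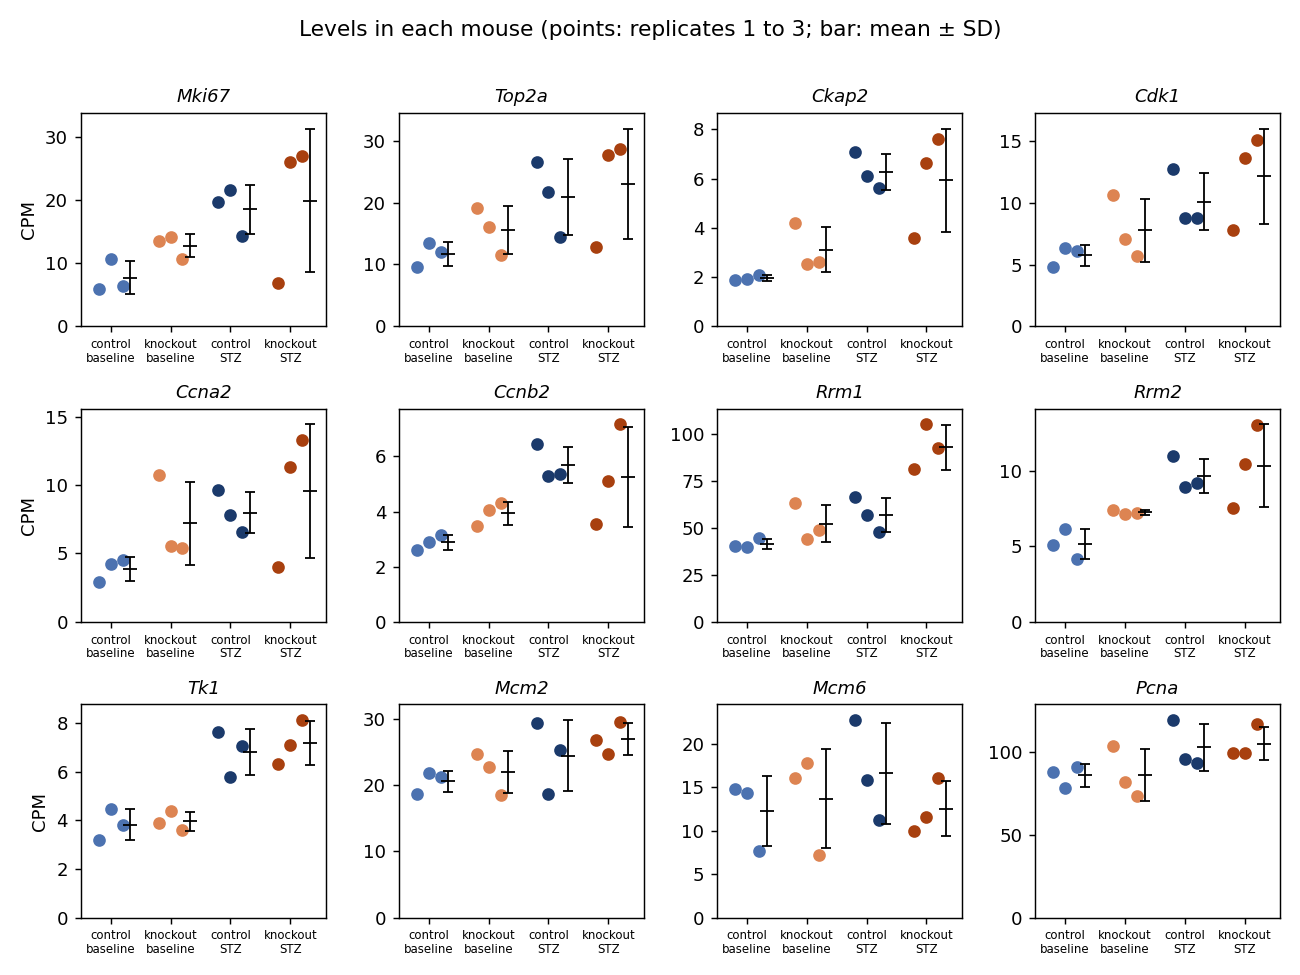
CPM of 12 of the genes in each mouse on linear axes from 0, with points in the order of replicates 1 to 3 and a bar for the mean ± SD of each group. Ckap2, Ccnb2, Tk1 and Rrm2 separate the STZ controls from the baseline controls, Mcm2 and Mcm6 do not, and Rrm1 stands highest in the 3 STZ knockouts.

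In the knockout mice 32 of the 36 genes had positive log2 fold changes for STZ against baseline. The median was 0.31, against -0.02 for all 13473 genes tested, of which 46.9% were positive. None was called by edgeR, against 0.178% of all genes. At an unadjusted p under 0.05, 4 were higher (Tk1, Rrm1, Kif23 and Ckap2), against 7.81% of all genes. The groups did not overlap for 5 genes, Rrm1, Rrm2, Tk1, Mcm2 and Kif23, each higher after STZ, against 12.9% of all genes. DESeq2 called Tk1, Rrm1 and Kif23, against 5.98% of all genes. The edgeR fit with the spread estimated on all 12 libraries called the same genes. Its count over all genes differs from that of DESeq2 and is given in the last section.

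Tk1 stood at 3.88, 4.38 and 3.62 CPM in the baseline knockouts and at 6.33, 7.10 and 8.12 in the STZ knockouts, with a log2 fold change of 0.84 ± 0.17 (adjusted p = 0.115, edgeR). Rrm1, the large subunit of ribonucleotide reductase, stood at 63.3, 44.3 and 49.0 CPM and at 81.3, 105 and 92.9, with 0.81 ± 0.19 (adjusted p = 0.149, edgeR). All STZ knockouts were above all baseline knockouts for both genes. Kif23 stood at 15.2, 14.9 and 14.3 CPM and at 19.8, 19.3 and 21.1, with 0.41 ± 0.10. All 3 STZ knockouts were above all baseline knockouts for Kif23 too.

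The mitotic genes were spread widely among the STZ knockouts. Mki67 stood at 13.5, 14.1 and 10.6 CPM in the baseline knockouts and at 6.77, 25.9 and 27.0 in the STZ knockouts, so replicate 1 lay below every mouse at baseline of its genotype and the other two far above them. Ccna2 stood at 10.7, 5.56 and 5.39 CPM and at 4.04, 11.3 and 13.3. Top2a stood at 19.1, 16.0 and 11.5 CPM and at 12.8, 27.8 and 28.6. Replicate 1 was again the lowest of the STZ knockouts for both genes.

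Other cyclin and kinase genes had the same order. Cdk1 stood at 10.6, 7.03 and 5.66 CPM in the baseline knockouts and at 7.80, 13.6 and 15.1 after STZ. Ccnb1 stood at 4.66, 3.45 and 3.40 CPM and at 3.56, 5.47 and 6.96. Ccnb2 stood at 3.48, 4.04 and 4.30 CPM and at 3.55, 5.10 and 7.16. Of the 36 genes, 32 were lowest in STZ knockout replicate 1 and 29 highest in replicate 3, and the ratio of highest to lowest reached 3.99, for Mki67. The same was not counted over all genes.

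Without STZ knockout replicate 1, 34 of the 36 were positive, 14 had an unadjusted p under 0.05 in the higher direction, against 7.68% of all genes in that fit, and the median was 0.41, with none called by edgeR. Without replicate 3 the median was 0.14. Mcm2, Mcm5 and Pcna varied less among the STZ knockouts. Mcm2 stood at 24.7, 22.7 and 18.4 CPM in the baseline knockouts and at 26.7, 24.7 and 29.5 after STZ. Mcm5 stood at 16.6, 16.4 and 9.87 CPM and at 16.5, 18.3 and 19.9, and Pcna at 103, 81.6 and 73.2 CPM and at 99.0, 99.0 and 116.

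Rrm2 stood at 7.41, 7.12 and 7.20 CPM in the baseline knockouts and at 7.54, 10.5 and 13 in the STZ knockouts, with 0.49 ± 0.22 and no overlap. Mcm6 stood at 16.1, 17.8 and 7.25 CPM and at 9.99, 11.6 and 16.1, with overlap. Baseline replicate 3 was the lowest knockout for Mcm6, as the third control was among the controls.

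A further 3 genes, those of smallest p in the knockout comparison at baseline, had these levels after STZ. Cenpf stood at 8.21, 9.51 and 5.86 CPM in the STZ controls and at 3.46, 10.4 and 10.5 in the STZ knockouts. Prc1 stood at 20.9, 21.0 and 15.6 CPM and at 17.5, 24.4 and 25.5. Aurkb stood at 3.84, 2.49 and 2.45 CPM and at 1.87, 3.50 and 4.54, and for none of the 3 were the STZ genotypes separate.

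Markers of other cells also differed between libraries, and their part in the results was not tested. Macrophage markers were summed over 7 of the 8 listed in both arms (Adgre1, C1qa, C1qb, C1qc, Csf1r, Cd14 and Lyz2; Cd68 was listed only after STZ). The sum was 47.3 to 75.5 CPM in the baseline controls and 54.8 to 64.9 in the baseline knockouts. It was 622, 118 and 121 CPM in the STZ controls and 93.2, 212 and 221 in the STZ knockouts. The library with the highest sum in the STZ controls, replicate 1, was also highest for 28 of the 36 cell cycle genes, and the library with the lowest sum in the STZ knockouts was lowest for 32. The lowest sum in the STZ controls was that of replicate 2, whereas replicate 3 was lowest for 25 of the genes. How often a library was highest or lowest was not counted over all genes. None of the 7 markers was at 0 in any STZ library.

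With the mean log2 CPM of the macrophage markers as a covariate, the median of the 36 was 0.22 in controls, with 30 positive. It was -0.44 in knockouts, with 6 positive. In both genotypes every STZ library had a higher macrophage sum than every baseline library. These fits therefore cannot well separate the markers from STZ. With this covariate Ckap2 was not called in controls, with a log2 fold change of 1.46 and an adjusted p of 0.215 (edgeR). Without STZ control replicate 1, the library with 622 CPM, the median in controls was 0.30, 33 were positive and 16 had an unadjusted p under 0.05 in the higher direction, against 5.89% of all genes in that fit. That library also stood apart in parietal epithelial markers, at 706 CPM over 6 genes, against 293 and 277 in the other STZ controls, 238 to 324 in the STZ knockouts and 230 to 357 at baseline. It held 64.5 CPM of the neutrophil genes S100a8 and S100a9, against 1.71 and 7.94 in the other STZ controls. Ly6g, Elane and Camp, also on the list of neutrophil markers, were not listed in either arm. Mpo, the remaining marker of that list, was listed only after STZ, at 1.35 to 1.95 CPM. Of 6 T and NK cell markers none was listed at baseline, and the 4 listed after STZ lay between 0.97 and 4.12 CPM.

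Proximal tubule markers, summed over 8 genes, ran the other way. They stood at 1625, 3162 and 8680 CPM in the STZ controls and at 8513, 1823 and 2156 in the STZ knockouts, so the libraries with the highest tubule sums, control replicate 3 and knockout replicate 1, were lowest for 25 and 32 of the 36 genes. With mean log2 CPM of tubule markers as a covariate, the median of the 36 for STZ was 0.43 in controls and 0.16 in knockouts. Ckap2 was then called in controls at an adjusted p of 0.0179 (edgeR). Podocyte markers were high in all libraries, at 16811 to 33466 CPM over 6 genes. Glomerular endothelial markers stood at 12095 to 14910 CPM in the baseline controls and at 9827 to 17858 in the baseline knockouts. They stood at 15082, 11093 and 7309 CPM in the STZ controls and at 7072, 9691 and 8001 in the STZ knockouts. Mesangial markers stood at 3121 to 4068, 3315 to 3672, 1512 to 2406 and 2023 to 2999 CPM in the same order.

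**Figure D3:**
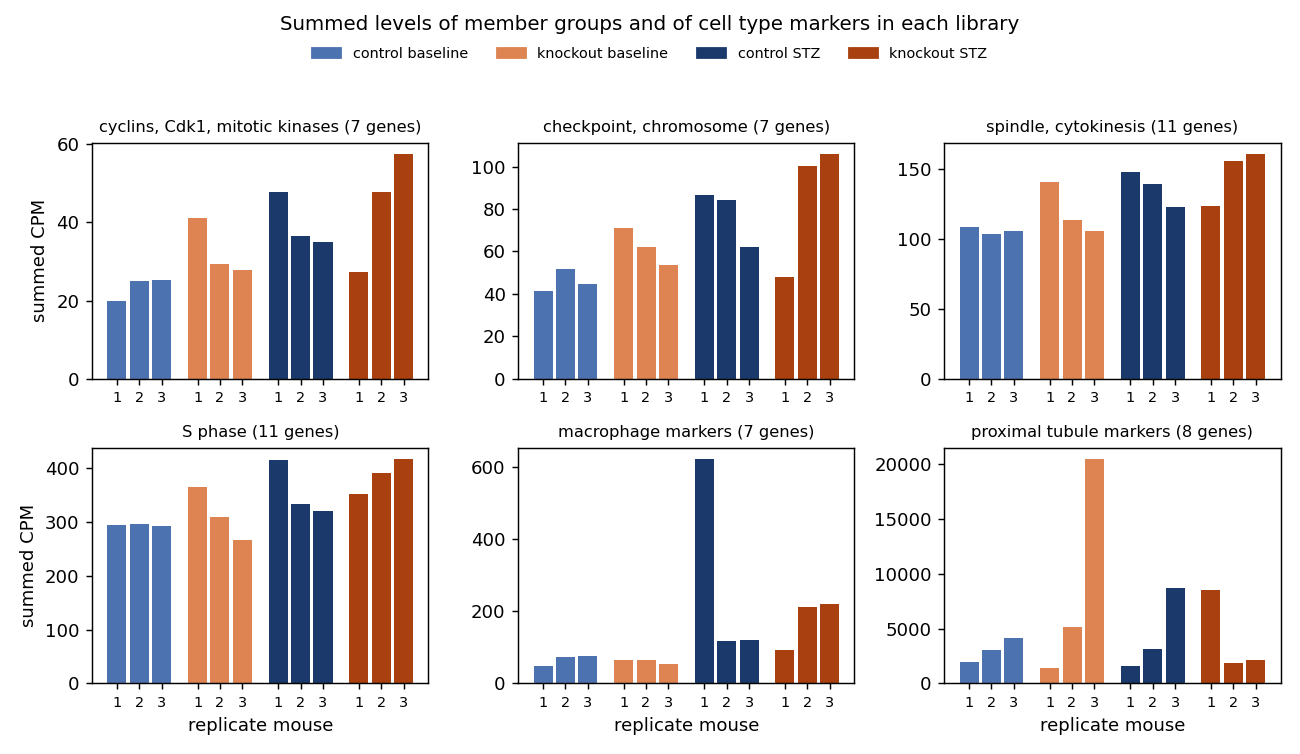
Summed CPM in each library of the members by role and of macrophage and proximal tubule markers, on linear axes from 0, with bars for replicates 1 to 3 of each group. STZ knockout replicate 1 has the lowest member sums of its group beside the highest tubule sum (8513 CPM) and the lowest macrophage sum (93.2 CPM).

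The knockout was compared with control within each arm. At baseline, 33 of the 36 genes were higher on average in the knockouts, with a median log2 fold change of 0.24. The median was 0.01 for all 13475 genes tested, of which 52.4% were higher. None was called by edgeR, against 0.23% of all genes, and none by DESeq2, which called 1.65%. At an unadjusted p under 0.05, 10 were higher and none lower, against 2.83% of all genes in the higher direction. In 12 of the 36 each knockout lay above each control, against 4.98% of all genes.

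The 10 genes were Cenpf, Prc1, Aurkb, Rrm2, Mki67, Aurka, Ccna2, Tpx2, Ckap2 and Ccnb2, with 9 from mitosis and 1 from S phase. Cenpf stood at 3.47, 4.28 and 2.36 CPM in the baseline controls and at 6.36, 5.52 and 5.66 in the baseline knockouts, a log2 fold change of 0.79 ± 0.24 (adjusted p = 0.541, edgeR). Prc1 stood at 14.2, 12.5 and 11.5 CPM and at 20.7, 17.4 and 15.3, with 0.48 ± 0.15. Aurkb stood at 1.30, 1.66 and 1.45 CPM and at 3.14, 2.19 and 2.08, with 0.75 ± 0.25. The groups did not overlap for these 3 genes.

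Rrm2 was the S-phase gene of the 10, with every knockout above every control and a log2 fold change of 0.49 ± 0.17. Mki67 had 0.74 ± 0.26, and its highest control and lowest knockout both stood at 10.6 CPM. Ccna2 had the largest value, 0.89 ± 0.33, with knockout replicate 1 at 10.7 CPM and the others at 5.56 and 5.39. The MCM genes had values from -0.09 to 0.16 and Pcna 0.01 ± 0.15, and the genotypes overlapped for each of these 7 genes.

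Knockout replicate 1 was highest for 29 of the 36 genes at baseline and replicate 3 lowest for 25, which was not counted over all genes. Proximal tubule markers stood at 1363, 5157 and 20496 CPM in the 3 baseline knockouts, against 1934 to 4135 in the controls. Glomerular endothelial markers stood at 17858, 11204 and 9827 CPM in the same knockouts, and 4 B and plasma cell markers summed to 28.4, 8.63 and 6.21 CPM, so replicate 1 was highest for both, and their part in the result was not tested. Without knockout replicate 1, 26 of the 36 were positive, the median was 0.11, and 3 had an unadjusted p under 0.05 in the higher direction, against 13.8% of all genes in that fit. Without replicate 3, all 36 were positive, with a median of 0.32. With the mean log2 CPM of tubule markers as a covariate all 36 were positive as well, and the median was 0.29. In that fit 14 had an unadjusted p under 0.05 in the higher direction, against 4.08% of all genes. Macrophage sums overlapped between the genotypes at baseline, and with the mean log2 CPM of those markers as a covariate the median was 0.25.

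After STZ, 27 of the 38 genes were higher on average in the knockouts than in the controls. The median was 0.08, against -0.02 for all 16291 genes tested, of which 46.6% were higher. None was called by edgeR, against 1.07% of all genes. Rrm1 alone had an unadjusted p under 0.05, against 5.49% of all genes in the higher direction, and Rrm1 alone had groups that did not overlap, against 8.27% of genes. DESeq2 called Rrm1 and no other member, against 3.48% of all genes.

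Rrm1 (chromosome 7, 102441695 to 102469771) stood at 66.3, 56.7 and 47.8 CPM in the STZ controls and at 81.3, 105 and 92.9 in the STZ knockouts, a log2 fold change of 0.71 ± 0.17 (adjusted p = 0.166, edgeR). It was called with the proximal tubule covariate (adjusted p = 0.0265) and with the macrophage covariate (adjusted p = 0.0402). It was not called by edgeR on all 12 libraries (adjusted p = 0.0529) or with sex as a covariate (adjusted p = 0.459). Knockout replicate 2 was the only female of the arm, so the sex fit is nearly the one without this mouse. Across its alternatives the adjusted p ran from 0.0220 to 0.467, and the fold change stayed positive. At baseline the same gene stood at 40.3, 39.9 and 44.6 CPM in controls and at 63.3, 44.3 and 49.0 in knockouts, with 0.33 ± 0.15 and an overlap of 1 knockout with the highest control. Rrm1 was the gene whose level was highest in all 3 STZ knockouts in the plot of CPM by mouse.

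The next genes by p after STZ were Bub1b, Ckap2l and Mcm6. Bub1b, which encodes the checkpoint kinase BUBR1, stood at 8.14, 7.72 and 7.33 CPM in the STZ controls and at 6.88, 11.3 and 10.8 in the STZ knockouts. Ckap2l stood at 21.1, 23.5 and 20.9 CPM and at 27.8, 23.7 and 22.7. Mcm6 went the other way on average, with 22.8, 15.8 and 11.3 CPM in controls and 9.99, 11.6 and 16.1 in knockouts, a log2 fold change of -0.40 ± 0.30. The groups overlapped for all 3 genes.

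Birc5 and Ccne2 could be compared in this arm only. Birc5, which encodes survivin of the chromosomal passenger complex, stood at 1.40, 0.62 and 0.93 CPM in the STZ controls and at 0.52, 1.74 and 1.45 in the STZ knockouts, on the scale of the STZ libraries. Ccne2, which encodes cyclin E2, stood at 3.57, 3.90 and 2.57 CPM and at 2.11, 3.90 and 3.89. Both genes had replicate 1 as the lowest of the STZ knockouts, as most members did, and both overlapped between the genotypes. Their log2 fold changes were 0.33 ± 0.49 and -0.02 ± 0.29.

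The median of the 38 after STZ depended on single libraries. It was 0.23 with 34 positive without knockout replicate 1, and -0.07 with 12 positive without knockout replicate 3. Without control replicate 1 it was 0.16.

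**Figure D4:**
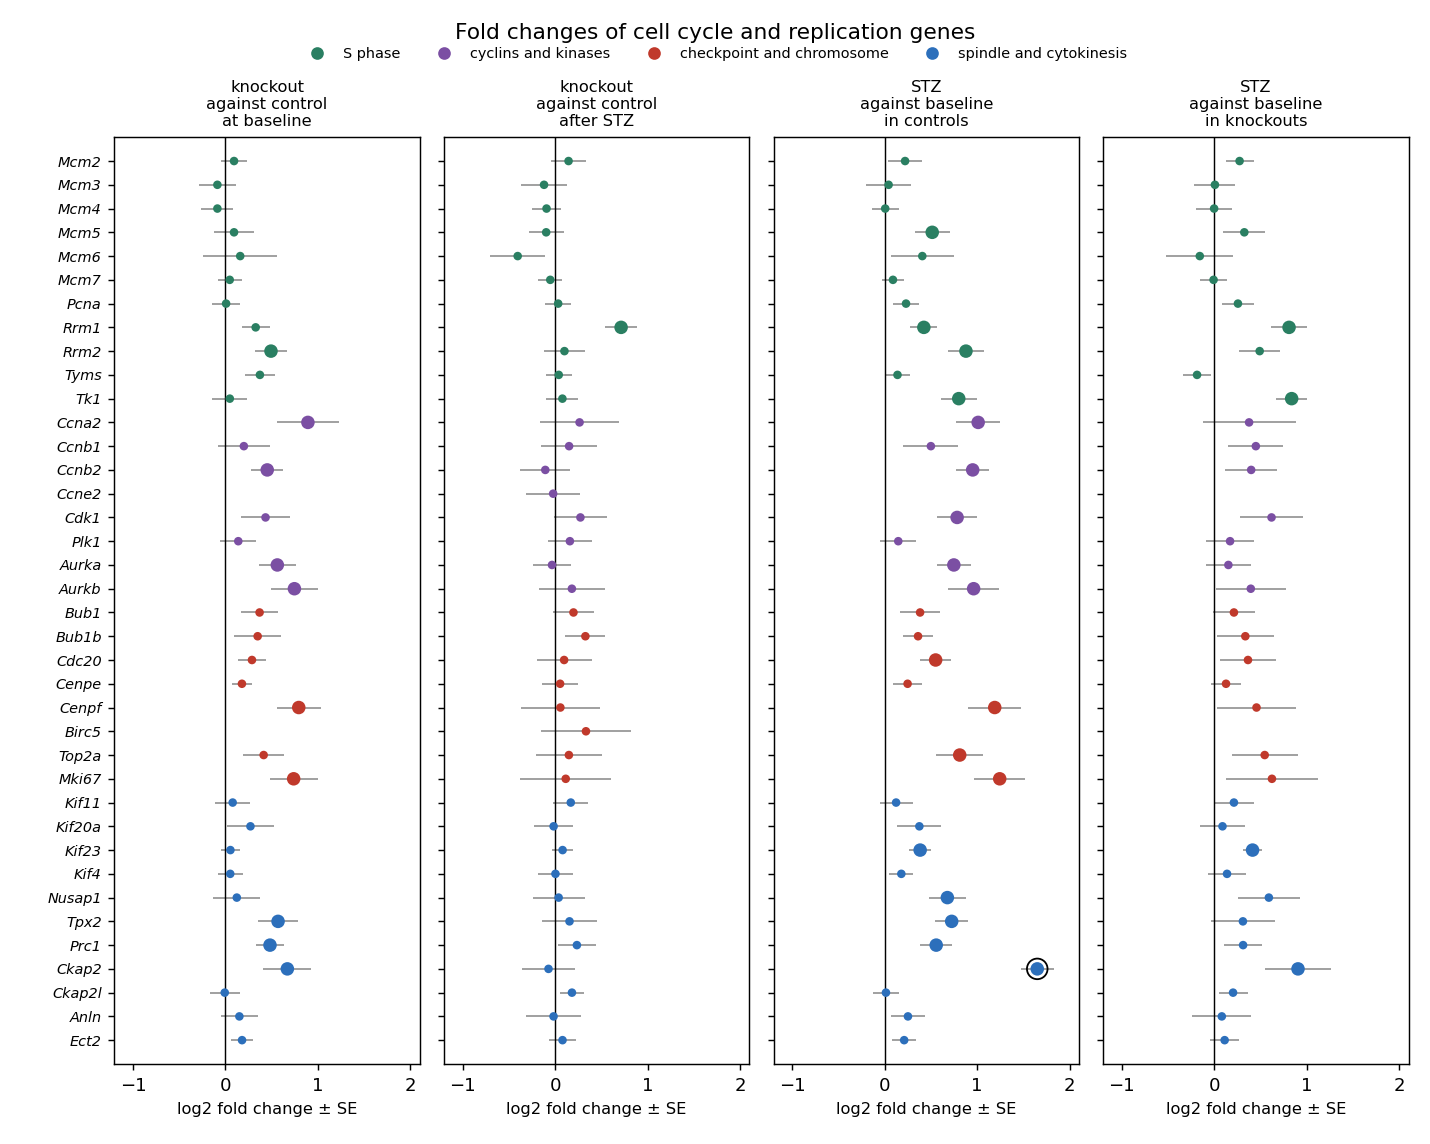
Log2 fold change with its SE for each member in the 4 comparisons between groups, coloured by role. Large points have an unadjusted p under 0.05 and the ring marks the call at an adjusted p under 0.05, Ckap2 at 1.65 for STZ in controls; the comparisons share groups and are not independent of one another.

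Whether the STZ difference depended on the genotype was tested as an interaction on all 12 libraries. None of the 36 genes was called by edgeR, against 0.00742% of all genes (1 gene), and none by DESeq2, against 0.23%. None had an unadjusted p under 0.05, against 3.67% of all genes. The median was -0.17, with 28 negative values, against -0.03 for all genes, of which 44.9% were positive. Without STZ knockout replicate 1 the median was -0.01 with 18 positive values, and without replicate 3 it was -0.30, with 3 genes at an unadjusted p under 0.05, against 2.83% of all genes in that fit. With the tubule covariate it was -0.29 with 5 positive values and 5 genes at such a p, against 5.67% of all genes.

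The smallest p-values belonged to Aurka at -0.60 ± 0.28, Ckap2 at -0.75 ± 0.40, Ccnb2 at -0.56 ± 0.33 and Rrm1 at 0.38 ± 0.23, each with an adjusted p of 0.975 (edgeR). Aurka, the kinase of the spindle poles, stood at 2.34, 2.35 and 2.65 CPM in the baseline controls and at 4.31, 3.54 and 2.99 in the baseline knockouts. It stood at 4.68, 3.99 and 3.92 CPM in the STZ controls and at 3.44, 3.73 and 5.11 in the STZ knockouts. The baseline controls were the lowest group for Aurka, and the other 3 groups overlapped. A difference in the STZ effect between genotypes was thus not detectable, which does not show that the effects were alike.

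Other genes of the cycle were counted from 7 lists, with 113 genes listed in both arms and 128 after STZ. In controls after STZ, 90 of 113 were positive with a median of 0.27, 27 had an unadjusted p under 0.05 in the higher direction and 1 in the lower, against 5.58% of all genes higher. None was called by edgeR, while DESeq2 called 5, against 3.05% of all genes. In knockouts after STZ 81 were positive with a median of 0.15, and 14 were higher and 3 lower at an unadjusted p under 0.05, against 7.81% of all genes higher. For the knockout at baseline 72 were positive with a median of 0.09, and 6 were higher and 2 lower at such a p, against 2.83% of all genes higher. After STZ 66 of 128 were positive with a median of 0.02, and 4 were higher and 4 lower, against 5.49% of all genes higher. Of all genes tested, 53.7%, 46.9%, 52.4% and 46.6% were positive in these comparisons, in the same order. The interaction had a median of -0.08 with none called.

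Medians by list are given for the STZ comparison of controls, and differences between lists were not tested. The median was 0.43 for the 12 genes of mitotic entry, 0.35 for the 18 of condensin, spindle and cytokinesis, and 0.31 for the 18 of the kinetochore and anaphase. It was 0.23 for the 14 genes of origin licensing and 0.22 for the 25 of the replication fork. It was 0.04 for the 17 G1/S cyclins, kinases and E2F genes and 0.00 for the 9 inhibitors. Pbk, a mitotic kinase gene, stood at 1.46 to 2.03 CPM in the baseline controls and at 4.13 to 4.62 in the STZ controls, with 1.25 ± 0.20 (adjusted p = 0.105, edgeR). Ccng1, a target of p53, stood at 137 to 145 and at 203 to 235 CPM, with 0.61 ± 0.11.

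Cdkn1c was the gene of these lists that passed the edgeR test in any of the 5 comparisons. It encodes p57, an inhibitor of cyclin-dependent kinases that mature podocytes express. It stood at 1247, 1152 and 1155 CPM in the STZ controls and at 704, 649 and 732 in the STZ knockouts, and fell by 0.77 on the log2 scale (SE 0.12, adjusted p = 0.0465, edgeR). The call was lost when any 1 library of the arm was left out, with adjusted p from 0.0647 to 0.211. It was also lost with the macrophage covariate (0.0534) and the fit on all 12 libraries (0.0637), and DESeq2 made it. With the sex covariate the adjusted p was 0.201 (edgeR). Knockout replicate 2 was the only female of the arm, so that fit is nearly the one without this mouse. At baseline Cdkn1c stood at 968, 756 and 919 CPM in controls and at 386, 221 and 294 in knockouts, a log2 fold change of -1.55 ± 0.23 (adjusted p = 0.0937, edgeR). There DESeq2 called it (adjusted p = 2.2e-07), as did edgeR on all 12 libraries (0.00281) and without knockout replicate 1 (0.0430). All knockouts lay below all controls in both arms.

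Other genes named by the same rule did not pass the edgeR test of their comparison. DESeq2 called Pbk and Ccng1 for STZ in controls, Cdk6, Orc1 and, for STZ in knockouts, Cdkn1c and Cdkn1b. Cdk6, a G1 kinase gene, stood at 18.5 to 22.7 CPM in the baseline controls and at 29.9 to 34.3 in the baseline knockouts, with 0.67 ± 0.12. Orc1, of the origin recognition complex, stood at 2.25 to 2.70 CPM in the STZ controls and at 3.44 to 4.36 in the STZ knockouts, with 0.65 ± 0.16. The groups did not overlap for either gene. For STZ in knockouts the inhibitor genes Cdkn1c and Cdkn1b had 1.18 ± 0.23 and -0.58 ± 0.14, and in the interaction Cdkn1c and Cdkn2c had 0.78 ± 0.26 and -0.72 ± 0.24.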

How the data were processed

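RNA from isolated glomeruli of 12 mice was sequenced, 3 per group. The authors deposited 1 table of estimated counts per library, as gene symbols with values that are not scaled to depth. Between 10.5% and 11.5% of values end in 0.5, and values were rounded to whole numbers. Per the submitters' processing notes, BWA and mm10 were used, with no role or version, and the sources used here do not name the counting tool, annotation or use of strand. The 18 blank values were taken as 0.

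Genes were filtered with filterByExpr, scaled by TMM and compared by the quasi-likelihood test of edgeR 4.0.16 in R 4.3.3 with Benjamini-Hochberg adjustment over all genes tested, calling an adjusted p under 0.05. Each comparison between groups used its 6 libraries, and the interaction used all 12. The SE was derived from the F statistic. The p-values compare a difference with the spread between mice, 3 per group, estimated with information shared across genes. CPM were TMM-scaled over all 12 libraries on genes listed in both arms, while fold changes use the factors of their own comparison. The steps were run on simulated counts with larger fold changes than most of those described here, so their power at these sizes was not examined.

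Alternatives were DESeq2 1.42.0, its size factors in edgeR, no filter, a proximal tubule covariate, a fit on all 12 libraries and leaving out each library. Covariates for sex and for macrophage markers were added after seeing the data. Each marker covariate was the mean log2 CPM of the markers listed in both arms. The members and lists were chosen with earlier results of these data known. All members could be named; per-library values were given for 12 members fixed by name and, in each comparison, for those called and the 4 of smallest p. Of the other lists, called genes and the 2 of smallest p were named.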

Additional observations from a re-analysis of the deposited data

How the results depend on the processing

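By DESeq2, 222 genes were called for the knockout at baseline, 566 for the knockout after STZ, 410 for STZ in controls, 805 for STZ in knockouts and 31 for the interaction. With the fit on all 12 libraries the counts were 79, 293, 69 and 251 for the 4 comparisons between groups. With the proximal tubule covariate they were 55, 336, 56 and 231, and 0 for the interaction. With sex as a covariate they were 10, 63, 6 and 9, and 0 for the interaction. With the macrophage covariate they were 20, 270, 4 and 0, and 0 for the interaction. DESeq2 size factors in edgeR gave 2 for the interaction. Leaving out 1 library gave 4 to 51 genes for the knockout at baseline, 40 to 109 for the knockout after STZ, 4 to 12 for STZ in controls, 1 to 8 for STZ in knockouts and 0 to 2 for the interaction. Fewer samples entered the fits without 1 library, and the cause of the changes was not tested for any setting.

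Members called for STZ in controls numbered 8 by DESeq2, 0 with the macrophage covariate and 0 whenever 1 library was left out, against 1. Members called for STZ in knockouts numbered 3 by DESeq2 and 3 with the fit on all 12 libraries, against 0. For the knockout after STZ there was 1 by DESeq2, with the tubule covariate and with the macrophage covariate, against 0. The median of the members was 0.22 in controls and reversed to -0.44 in knockouts with the macrophage covariate, where Ckap2 reversed to -0.23 (adjusted p = 0.887, edgeR). The macrophage sums of the arms did not overlap in either genotype, so that covariate is hard to separate from STZ. For the knockout after STZ the median of the members ran from -0.07 to 0.23 when 1 library was left out. It reversed to -0.0743 without STZ knockout replicate 3. Its other leave-out ranges were 0.11 to 0.32 for the knockout at baseline, 0.30 to 0.53 and 0.14 to 0.44 for STZ in controls and knockouts, and -0.30 to -0.01 for the interaction. No paired analysis was possible because the labels give no replicate numbers shared between groups. Depth limits the lowest members most: the lowest count, 30, has a Poisson 95% interval of 20.2 to 42.8.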
